A study of Gallus gallus with 3 samples.

Results

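Broad H3K4me3 peaks that share no base with an H3K27me3 peak were examined in the chicken neural tube, the embryonic tissue that forms the brain and spinal cord. They were chosen by their measured width (at least 2700 bp) and by the absence of any H3K27me3 peak over them, on the numbered chromosomes, that is without the sex chromosomes Z and W and without unplaced sequences. The rule gave 427 peaks, out of 12414 in the H3K4me3 list and 11302 on numbered chromosomes. They are called broad peaks below, and the 8820 narrower peaks without H3K27me3 on the same chromosomes are called narrower peaks. All values come from wild-type White Leghorn embryos of stage HH30, a stage defined by the form of the embryo. Chromatin immunoprecipitation and sequencing (ChIP-seq) gave 1 library with an antibody against H3K4me3 and 1 with an antibody against H3K27me3; an Input library was not analysed here. The whole tissue was used, so each list describes a mixture of progenitors and neurons, and the number of embryos pooled is not in the labels. With 1 library for each mark no difference could be set against a spread between replicates, and no p-value is given. The lists hold no read counts, so the depth is unknown and a mark may be present where no peak was listed.

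H3K4me3 is placed by SET1 and MLL methyltransferase complexes on nucleosomes around the start sites of genes, mostly at CpG islands, and binds factors that promote transcription. H3K27me3 is placed by Polycomb repressive complex 2 and covers developmental genes that are kept silent. In mammalian cells H3K4me3 usually forms a narrow peak at a start site, and domains that spread into the gene body are known from genes tied to the identity of the cell and from strongly and steadily transcribed genes; the methyltransferase complexes and the histone demethylases of the KDM5 family are known to affect such spreading. Genes were not assigned to the peaks here, since the peaks lie on galGal4 and the available table of genes is of a different assembly.

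The broad peaks were few and mostly not far above the width minimum. Of the 9247 H3K4me3 peaks without H3K27me3 on numbered chromosomes, 4.62% were broad, and these held 10.4% of the length that such peaks covered (1482 of 14288 kb). Their median width was 3169 bp (quartiles 2870 and 3684 bp), against 1421 bp in narrower peaks (quartiles 1062 and 1788 bp). Of the 427, 293 were under 3500 bp wide, 106 were 3500 to 4999 bp wide and 28 were 5000 bp or wider. The 5 members just inside the minimum were 2700, 2700, 2702, 2702 and 2702 bp wide, and the 5 peaks just outside it were 2696, 2695, 2694, 2693 and 2691 bp wide. There was thus no gap in width at the minimum, which cuts through a continuous distribution. Of all H3K4me3 peaks of at least 2700 bp on numbered chromosomes, 157 of 584 (26.9%) overlapped H3K27me3 and were left out by the rule, and 1898 of 10718 narrower ones (17.7%) were left out in the same way. Outside the numbered chromosomes, 30 peaks on Z and 8 on W or other sequences met the same width and overlap criteria.

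Most broad peaks sat at the top of the deposited score, the peak caller's own value, which rises with width in this list and is described here without further reading. The score was exactly 3100 in 293 broad peaks (68.6%) and above it in 9, against 1019 (11.6%) and 126 of the narrower peaks. A score from 1000 up to 3100 was given to 102 broad peaks, and 23 scored under 1000. Above 3100 or at it, 20.9% of the 1447 H3K4me3-only peaks were broad. Within the broad peaks the Spearman correlation between width and score was 0.15 (n = 427 peaks from 1 library), with most scores tied at 3100.

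**Figure D1:**
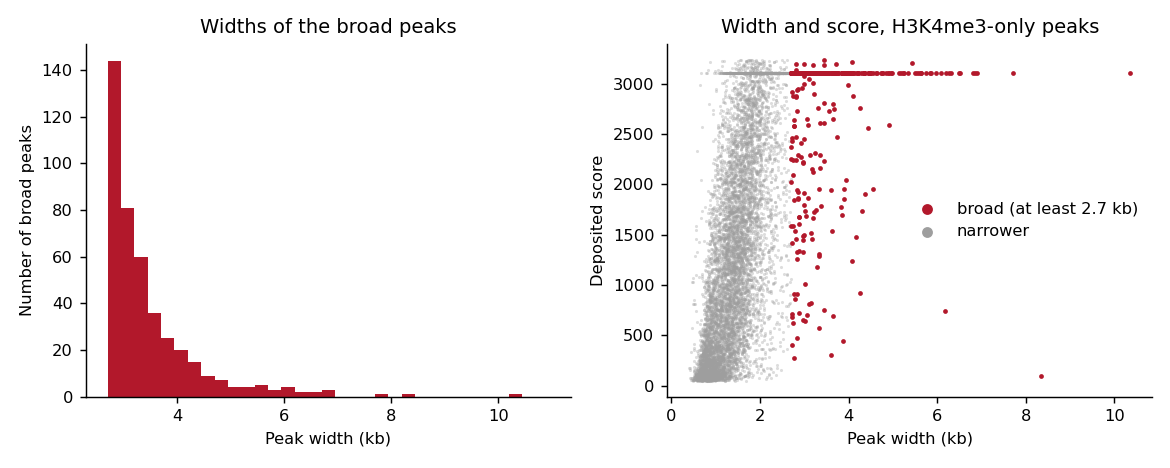
Left, number of broad peaks by width in bins of 0.25 kb; right, deposited score against width (kb) for the 427 broad peaks (red) and the 8820 narrower peaks (grey). Most broad peaks lie under 3.5 kb, and the line of points at 3100 holds 293 of them.

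The widest broad peak lay on chromosome 28 from 3373359 to 3383719 and spanned 10361 bp (all coordinates are on galGal4, counted from 1). It scored 3100, and the nearest H3K27me3 peak was 43.9 kb away. A second broad peak, of 3659 bp, lay 676 bp from it, so that the pair reached over 14.7 kb. Next came a peak of 8342 bp on chromosome 1 from 135630467 to 135638808, which stood apart from the other wide members in its score of 98.33. Its nearest other H3K4me3 peak lay 43.4 kb away and scored 52.82, and its nearest H3K27me3 peak lay 59.1 kb away. The third, of 7709 bp, was on chromosome 14 from 4121721 to 4129429, with an H3K4me3 peak of 1230 bp only 123 bp away and H3K27me3 43.7 kb away. The fourth, of 6908 bp, was on chromosome 25 from 553414 to 560321. Beside it, across 310 bp, lay an H3K4me3 peak of 6629 bp that did overlap H3K27me3, and the edge of H3K27me3 was 2243 bp from the broad peak. The fifth, of 6856 bp, was on chromosome 20 from 10372890 to 10379745, with 18.3 kb to H3K27me3 and 19.0 kb to the next H3K4me3 peak. Of these 5, 3 had another H3K4me3 peak within 1 kb and 4 scored 3100.

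A few members were wide with little score. The 23 broad peaks that scored under 1000 had a median width of 3006 bp and a median score of 697.3. After the chromosome 1 peak of 8342 bp, the lowest scores were 276.16 for a peak of 2772 bp on chromosome 12 from 2877380 to 2880151 and 307.34 for a peak of 3601 bp on chromosome 1 from 47973070 to 47976670. A width of 6186 bp went with a score of 738.17 on chromosome 11, from 19101924 to 19108109. Listing the low-scoring members was decided after their values were seen.

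The chicken genome consists of a few macrochromosomes and many small, gene-dense microchromosomes, and the broad peaks were compared between these classes (chromosomes 1 to 5, 6 to 10, and 11 and above). Broad peaks made up a larger share of the H3K4me3-only peaks on microchromosomes than on macrochromosomes. On microchromosomes 166 of 3070 were broad, or 5.41% (95% Wilson interval 4.66 to 6.26%). On intermediate chromosomes it was 73 of 1543, or 4.73% (interval 3.78 to 5.91%), and on macrochromosomes 188 of 4634, or 4.06% (interval 3.53 to 4.66%), beside the 4.62% over all numbered chromosomes. The intervals of microchromosomes and macrochromosomes met at 4.66%. Per Mb, taken from the start of a chromosome to its last peak end, microchromosomes had 0.97 broad peaks and macrochromosomes 0.31, which is 3.11 times as many; all H3K4me3-only peaks together numbered 17.9 per Mb on microchromosomes and 7.67 on macrochromosomes, or 2.34 times as many. Turned round, 38.9% of broad peaks (interval 34.4 to 43.6%) and 32.9% of narrower peaks (interval 32.0 to 33.9%) lay on microchromosomes. Of narrower peaks of at least 1500 bp it was 34.1% (interval 32.6 to 35.6%), which overlaps the interval of broad peaks. Without a group of 10 broad peaks on chromosome 27, described further on, it was 37.4% of broad and 32.8% of narrower peaks. No interval was computed for these values without the group. Among peaks that scored 3100 or more the shares were 36.4% of broad peaks (interval 31.2 to 42.0%) and 28.8% of narrower peaks (interval 26.3 to 31.5%), with overlapping intervals. The median width of the broad peaks was 3234 bp on microchromosomes, 3090 bp on intermediate chromosomes and 3166 bp on macrochromosomes. These intervals cover counting error only and treat peaks as independent, although peaks that lie together share their surroundings.

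Every one of the 28 numbered chromosomes with H3K4me3 peaks held at least 2 broad peaks. The 5 macrochromosomes lay close together, between 3.74% on chromosome 2 and 4.59% on chromosome 5. Microchromosomes were spread more widely, but each held only 15 to 272 H3K4me3-only peaks, against 632 to 1416 on a macrochromosome. Shares of fewer peaks vary more by counting error, and whether the spread exceeds it was not tested. On chromosome 25, 10 of 89 H3K4me3-only peaks were broad (11.2%; interval 6.22 to 19.5%), on chromosome 27 14 of 142 (9.86%; interval 5.96 to 15.9%), and on chromosome 18 16 of 197 (8.12%; interval 5.06 to 12.8%). Chromosome 16, with 2 of 15 (13.3%; interval 3.74 to 37.9%), is too small to place. Low shares were found on chromosome 22 (2 of 72, 2.78%; interval 0.77 to 9.57%), chromosome 13 (6 of 210, 2.86%; interval 1.32 to 6.09%) and chromosome 19 (6 of 198, 3.03%; interval 1.40 to 6.45%). Of these, the intervals of chromosomes 25, 27 and 18 lay above the 4.62% over all chromosomes, and those of 16, 22, 13 and 19 included it; they were not corrected for 28 chromosomes. Across the 27 chromosomes with at least 50 H3K4me3-only peaks, the share had a Spearman correlation of -0.43 with the span of the chromosome. With its density of H3K4me3-only peaks the correlation was 0.48, all counted in the same library. Neither correlation was recomputed without the group of 10 members on chromosome 27, described further on.

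On chromosome 27, 10 of the 14 members lay in 1 place, described further on, and without it the chromosome had 4 of 119 (3.36%). On chromosome 25 the 10 members were spread along its span, between positions 27902 and 2145090, and were 2904 to 6908 bp wide. On chromosome 18 the 16 members lay between 3946851 and 10942753, 13 of them with a score of 3100. Within chromosomes, the first and last 10% of the span held 23.9% of broad peaks (interval 20.1 to 28.2%) and 22.9% of narrower peaks (interval 22.0 to 23.8%), with overlapping intervals.

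**Figure D2:**
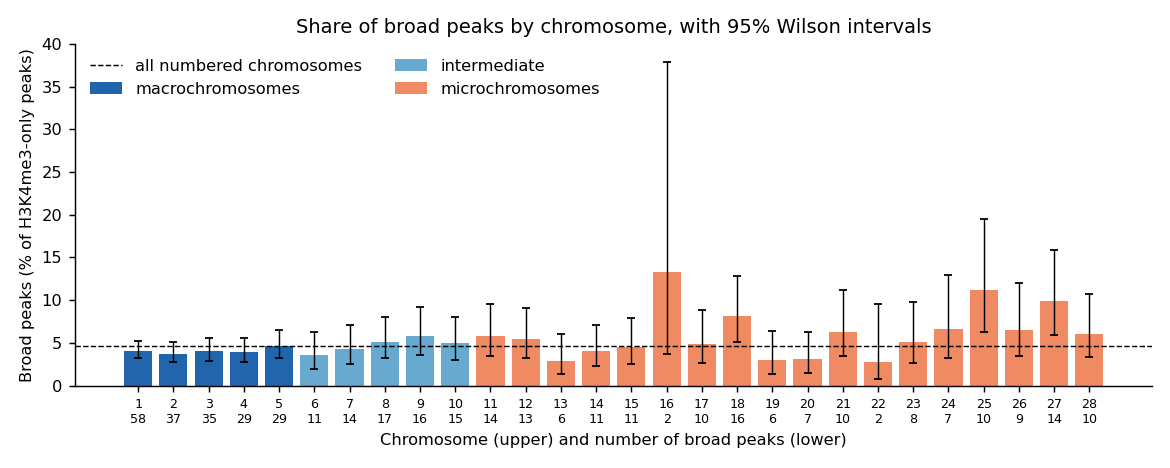
Broad peaks as a percentage of all H3K4me3-only peaks on each numbered chromosome, with 95% Wilson intervals; the dashed line is the 4.62% over all of them, colours give the chromosome class, and the lower row of labels gives the number of broad peaks. Chromosomes 25, 27 and 18 stand above the line with their intervals, and chromosome 16 rests on 15 peaks.

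Spacing to the next H3K4me3 peak was measured between edges. Broad peaks lay farther from it than narrower peaks when all narrower peaks were counted. The median distance was 19.0 kb for broad peaks (quartiles 4.21 and 46.5 kb; 95% interval of the median from binomial ranks 16.2 to 21.8 kb) and 9.99 kb for narrower peaks (quartiles 0.906 and 28.8 kb; interval 9.36 to 10.5 kb). Another H3K4me3 peak lay within 5 kb of 118 broad peaks (27.6%; interval 23.6 to 32.1%) and of 38.8% of narrower peaks (interval 37.8 to 39.9%). The same order held within each chromosome class. The median was 11.5 kb for broad and 6.88 kb for narrower peaks on microchromosomes, 20.0 kb for broad and 8.64 kb for narrower peaks on intermediate chromosomes, and 27.8 kb for broad and 14.7 kb for narrower peaks on macrochromosomes.

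The contrast differed between classes of score and of width. Among peaks that scored 3100 or more, another H3K4me3 peak lay within 5 kb of 27.2% of broad peaks (interval 22.4 to 32.4%) and 23.3% of narrower peaks (interval 21.0 to 25.9%), with median distances of 19.6 kb for broad and 18.5 kb for narrower peaks. From 2000 up to 3100 the shares were 20.0% of broad and 26.1% of narrower peaks, from 1000 up to 2000 they were 38.3% of broad and 34.7% of narrower peaks, and under 1000 they were 30.4% of 23 broad peaks (interval 15.6 to 50.9%) and 51.3% of narrower peaks (interval 49.7 to 52.9%). No class of score had intervals of this share that lay apart. Of peaks under 1000 bp, 75.1% had another H3K4me3 peak within 5 kb. The share was 39.3% at 1000 to 1499 bp, 22.5% at 1500 to 1999 bp and 19.0% at 2000 to 2699 bp. Among broad peaks it was 23.2% at 2700 to 3499 bp (interval 18.7 to 28.4%), 35.8% at 3500 to 4999 bp (interval 27.4 to 45.3%) and 42.9% at 5000 bp and over (12 of 28 peaks; interval 26.5 to 60.9%). The share thus had its lowest value just below the minimum and was higher in each wider class. Set against the 3914 narrower peaks of at least 1500 bp alone, over all numbered chromosomes, close neighbours were more frequent around broad peaks. Within 5 kb 27.6% of broad and 21.3% of these narrower peaks had one (interval for these narrower peaks 20.0 to 22.6%). The order was the same in each chromosome class. The intervals lay apart only on macrochromosomes (19.4 to 31.6% for broad, 14.7 to 18.0% for these narrower peaks). They overlapped on microchromosomes (32.5% of broad, 28.3% of narrower peaks) and on intermediate chromosomes (23.3% of broad, 21.6% of narrower peaks). Without the chromosome 27 group, described further on, the broad share was 26.4%, and no interval was computed for it. Within 1 kb the share was 14.8% of broad peaks (interval 11.7 to 18.4%) and 8.43% of narrower peaks of at least 1500 bp (interval 7.60 to 9.34%). On microchromosomes and intermediate chromosomes the intervals of the share within 1 kb lay apart as well, and on macrochromosomes they overlapped. The median distance was 19.0 kb for broad peaks and 17.2 kb for this narrower set, and 11.9% of broad peaks but 6.57% of narrower peaks of at least 1500 bp had no other H3K4me3 peak within 100 kb. Compared with narrower peaks of at least 1500 bp, broad peaks thus had larger shares both close to a neighbour and far from any. The 1500 bp limit was chosen after the data were seen and leaves out the classes below the minimum with the most close neighbours. At 1000 to 1499 bp 39.3% had one within 5 kb and 24.3% within 1 kb, more than among broad peaks. The order close to a neighbour thus depends on this limit. Over single members the Spearman correlation between width and this distance was -0.04 (n = 427).

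The close neighbours of broad peaks were mostly ordinary or small peaks. The 118 nearest neighbours within 5 kb had a median width of 1343 bp (quartiles 948.5 and 2204 bp) and a median score of 587.2. The neighbours of narrower peaks had a median width of 1102 bp and a median score of 849.8. Under 1000 bp were 28.0% of the neighbours of broad peaks (interval 20.7 to 36.7%), 40.1% of those of narrower peaks (interval 38.5 to 41.7%) and 24.6% of those of narrower peaks of at least 1500 bp (interval 21.8 to 27.6%). Neighbours lay on both sides in 27 of the 118 broad peaks (22.9%), against 8.29% of the narrower peaks with a neighbour and 8.16% of those of at least 1500 bp. Members of the chromosome 27 group, described further on, are among these 27. This share was not recomputed without them, and no interval was computed for it. H3K27me3 overlapped 8 of the 118 neighbours of broad peaks (6.78%; interval 3.48 to 12.8%) and 8.15% of the neighbours of narrower peaks (interval 7.28 to 9.11%). Since a peak caller can divide a stretch of signal or join it, neighbours within 1 kb were also merged: 768 regions then met the width and overlap criteria, of which 404 were made of at least 2 peaks, and 420 of the 427 broad peaks lay in one of them. Whether a broad peak is 1 stretch of chromatin or several was not tested.

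**Figure D3:**
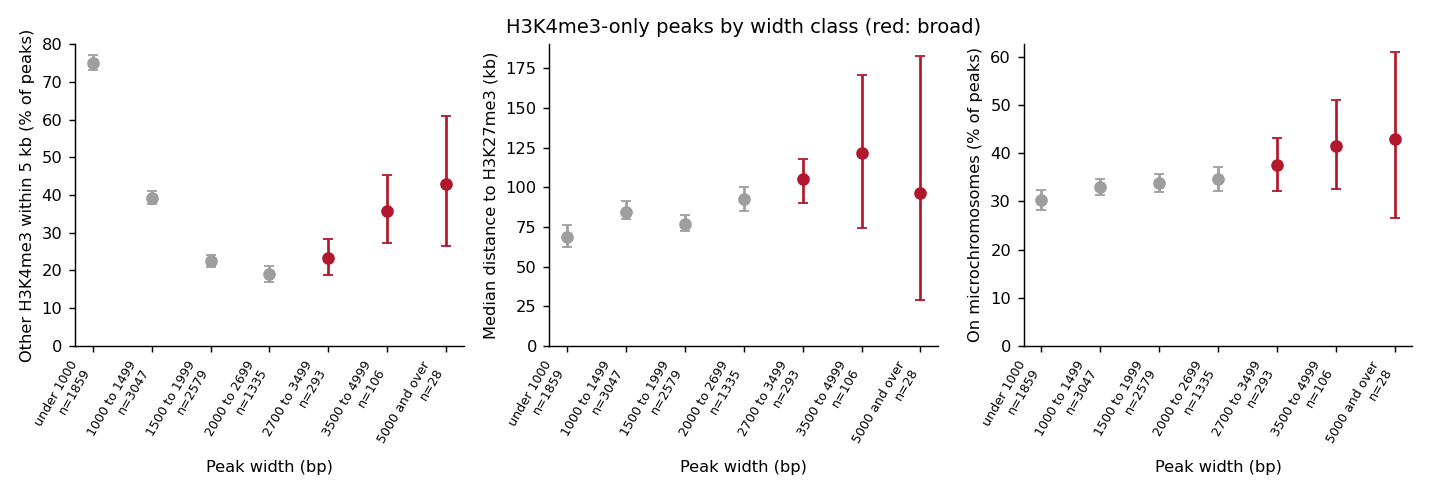
H3K4me3-only peaks by width class (bp, with the number of peaks), grey below and red above the minimum of 2700 bp: share with another H3K4me3 peak within 5 kb, median distance to H3K27me3 (kb) and share on microchromosomes, each with its 95% interval (Wilson for shares, binomial ranks for medians). The first falls to 19.0% at 2000 to 2699 bp and reaches 42.9% in the widest class, where 28 peaks leave wide intervals.

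Among peaks that do not overlap H3K27me3, broad peaks lay farther from it than narrower peaks, and this difference is not apart from the rule. The rule left out the peaks at distance 0, which were 26.9% of the peaks of at least 2700 bp and 17.7% of the narrower ones. With overlapping peaks counted at distance 0, the median was 57.8 kb for the 584 wide peaks (interval 42.0 to 72.7 kb) and 55.0 kb for the 10718 narrower ones (interval 52.8 to 57.3 kb). H3K27me3 then lay over or within 100 kb of 61.8% of wide peaks (interval 57.8 to 65.7%) and 64.3% of narrower ones (interval 63.4 to 65.2%), and over or within 50 kb of 49.0% of wide peaks (interval 44.9 to 53.0%) and 48.0% of narrower ones (interval 47.0 to 48.9%). The intervals of this median and of these shares overlapped. Over or within 10 kb the intervals lay apart, with 33.4% of wide peaks (interval 29.7 to 37.3%) and 26.3% of narrower ones (interval 25.5 to 27.1%). These shares include the overlapping peaks, 26.9% and 17.7%. Among peaks without overlap, H3K27me3 lay within 10 kb of 8.90% of broad and 10.4% of narrower peaks. Whether the overlap goes beyond what peak width alone would give was not tested. By class, with overlapping peaks again at distance 0, the median was larger for wide peaks on macrochromosomes and microchromosomes. It was smaller on intermediate chromosomes, and the intervals overlapped in each class. The values that follow describe the peaks without overlap alone. The median distance was 105.8 kb for broad peaks (quartiles 40.1 and 225.6 kb; interval of the median 92.4 to 120.9 kb) and 80.5 kb for narrower peaks (quartiles 30.1 and 189.1 kb; interval 77.9 to 83.2 kb). The distance was 82.3 kb for narrower peaks of at least 1500 bp (interval 78.8 to 86.3 kb). On microchromosomes it was 74.5 kb for broad peaks (interval 58.8 to 87.9 kb) and 48.3 kb for narrower peaks (interval 45.6 to 51.1 kb). On intermediate chromosomes it was 116.7 kb for broad peaks (interval 73.4 to 178.2 kb) and 74.0 kb for narrower peaks (interval 67.6 to 81.4 kb). On macrochromosomes it was 169.8 kb for broad peaks (interval 128.9 to 195.1 kb) and 117.6 kb for narrower peaks (interval 112.8 to 123.8 kb). The larger value was thus found in all 3 classes, with overlapping intervals only on the intermediate chromosomes. H3K27me3 within 100 kb was found for 47.8% of broad peaks (interval 43.1 to 52.5%) and 56.6% of narrower peaks (interval 55.6 to 57.7%).

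The distances to H3K27me3 were also compared within classes of score. Among peaks that scored 3100 or more the medians were 110.6 kb for broad peaks (interval 91.6 to 137.5 kb) and 94.8 kb for narrower peaks (interval 86.9 to 103.9 kb), with overlapping intervals. From 2000 up to 3100 they were 120.9 kb for 55 broad peaks (interval 89.8 to 172.6 kb) and 82.7 kb for narrower peaks (interval 76.8 to 88.7 kb), the one class of score whose intervals did not overlap. From 1000 up to 2000 they were 78.4 kb for 47 broad peaks (interval 48.5 to 114.4 kb) and 81.4 kb for narrower peaks (interval 76.0 to 86.4 kb), and under 1000 they were 74.95 kb for 23 broad peaks (interval 22.6 to 120.8 kb) and 74.0 kb for narrower peaks (interval 70.3 to 79.0 kb). At short range, among peaks without overlap, the intervals of the sets overlapped. H3K27me3 lay within 10 kb of 38 broad peaks (8.90%; interval 6.55 to 12.0%), of 10.4% of narrower peaks (interval 9.81 to 11.1%) and of 8.81% of narrower peaks of at least 1500 bp (interval 7.97 to 9.74%). Within the broad peaks, width had a Spearman correlation of 0.03 with the distance to H3K27me3, and the distance to the next H3K4me3 peak had one of 0.39 (n = 427, peaks of the same chromosomes and libraries).

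**Figure D4:**
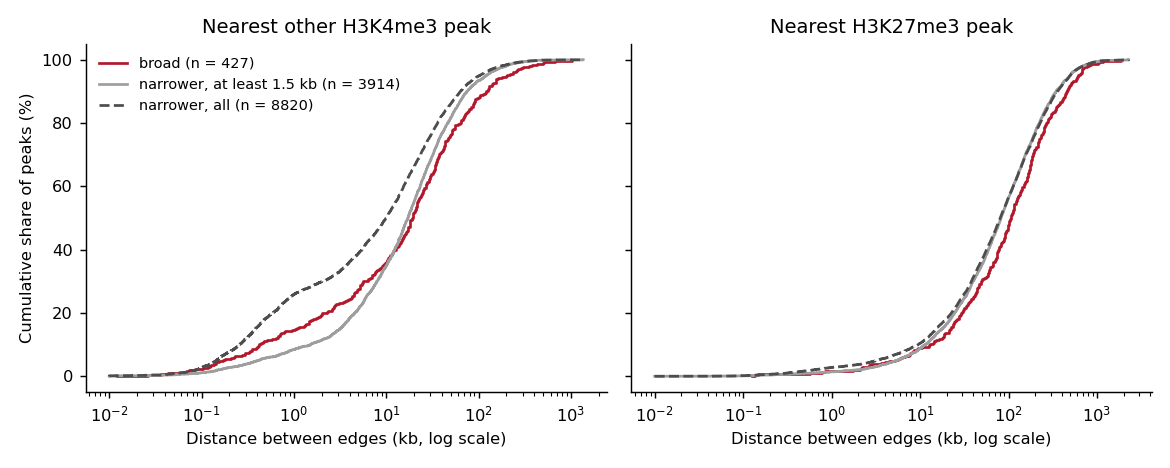
Cumulative share of peaks (%) by distance between edges (kb, log scale) to the nearest other H3K4me3 peak (left) and the nearest H3K27me3 peak (right), for broad peaks, narrower peaks of at least 1.5 kb and all narrower peaks, none of which overlaps H3K27me3. On the left the broad peaks run above the narrower peaks of at least 1.5 kb below about 10 kb and under them beyond it; on the right they run under both sets from about 10 kb.

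The stretch between the H3K27me3 peaks on either side was measured for the peaks without overlap, and so under the same condition. For 411 members with H3K27me3 on both sides it had a median of 489.3 kb (quartiles 242.6 and 976.9 kb). The median was 409.9 kb for narrower peaks and 408.2 kb for narrower peaks of at least 1500 bp. No interval of these medians was computed, and they were not split by chromosome class. The 411 members fell into 331 such stretches out of 2010 that held H3K4me3-only peaks; 272 held 1 member, 59 held at least 2, and a further 16 members lay outside the first or last H3K27me3 peak of their chromosome. H3K27me3 within 50 kb on both sides was found for 24 broad peaks (5.62%; interval 3.81 to 8.23%) and 6.97% of narrower peaks (interval 6.46 to 7.52%). Members of 1 stretch share its borders, so their distances are not independent.

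The members closest to H3K27me3 lay within 1 kb of it. On chromosome 4 a broad peak of 2968 bp from 26351650 to 26354617 ended 127 bp from an H3K27me3 peak of 3933 bp that scored 3100, while on the other side H3K27me3 was 1616 kb away. An H3K4me3 peak of 4127 bp that did overlap H3K27me3 lay 70 bp from it. A peak of 2736 bp on chromosome 9 from 14255400 to 14258135 lay 136 bp from H3K27me3 and 104 bp from an H3K4me3 peak with H3K27me3. On chromosome 21 a peak of 3306 bp from 2803472 to 2806777 stood between H3K27me3 peaks on both sides, 146 bp from one of 10679 bp and 1.40 kb from the other. A peak of 4499 bp on chromosome 4 from 1044485 to 1048983 and one of 2954 bp on chromosome 3 from 1883994 to 1886947 lay 565 and 748 bp from H3K27me3. In 4 of these 5 the next H3K4me3 peak carried H3K27me3, and in 3 of them it lay within 1 kb of the broad peak. These 5 were picked for lying close to H3K27me3. Among all members with a neighbour within 5 kb, that neighbour carried H3K27me3 in 8 of 118 (6.78%). The 38 H3K27me3 peaks within 10 kb of broad peaks had a median width of 1795 bp and a median score of 163.4, against 1751 bp and 245.7 for all 5535 H3K27me3 peaks on numbered chromosomes. Another H3K4me3 peak overlapped 15 of the 38 (39.5%; interval 25.6 to 55.3%), against 52.8% of those near narrower peaks (interval 49.2 to 56.3%) and 37.2% of all 5535 H3K27me3 peaks on numbered chromosomes (interval 36.0 to 38.5%).

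The members farthest from H3K27me3 were all on macrochromosomes, in sparse surroundings. A peak of 6501 bp on chromosome 4 from 71438467 to 71444967 lay 1864 kb from H3K27me3, with 1 other H3K4me3 peak within 500 kb, 1510 bp away. The other 4 lay on chromosome 1, from 18606947 to 18609670, from 126242960 to 126246297, from 18949057 to 18951897 and from 81371944 to 81375133, at 1383, 1158, 1041 and 1022 kb. All 5 scored 3100, and 1 to 4 other H3K4me3 peaks lay within 500 kb of each, against a median of 12 around broad peaks on macrochromosomes.

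The density of H3K4me3 around broad peaks was close to that around narrower peaks of the same chromosome class. Within 500 kb lay a median of 27 other H3K4me3 peaks around broad and 26 around narrower peaks on microchromosomes, 15 around broad and 17 around narrower peaks on intermediate chromosomes, and 12 around either on macrochromosomes. The number of H3K27me3 peaks within 500 kb had a median of 10.5 around broad and 11 around narrower peaks on microchromosomes, 5 around broad and 7 around narrower peaks on intermediate chromosomes, and 3 around either on macrochromosomes. Another broad peak lay within 100 kb of 79 members (18.5%; interval 15.1 to 22.5%) and a broad peak lay within 100 kb of 16.0% of narrower peaks (interval 15.2 to 16.8%). On microchromosomes this held for 28.3% of broad peaks (interval 22.0 to 35.6%) and 25.1% of narrower peaks (interval 23.6 to 26.7%), and on macrochromosomes for 11.7% of broad peaks (interval 7.86 to 17.1%) and 10.7% of narrower peaks (interval 9.83 to 11.6%). When members within 50 kb of each other were joined, 376 of 427 were single, 17 pairs formed, and 3 groups held 3, 4 and 10 members. Broad peaks were 4.62% of the H3K4me3-only peaks, and narrower peaks were not grouped in this way, so the count of single members has nothing to be set against. Of the nearest H3K4me3 peaks within 5 kb, 9 of 118 around broad peaks and 102 of 3425 around narrower peaks were themselves broad. Of the 9, 4 were in the chromosome 27 group described next.

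The group of 10 lay on chromosome 27 between 3568599 and 3665702. In these 97.1 kb the broad peaks covered 42.1% of the sequence, and together with 13 narrower peaks H3K4me3 covered 58.6%. The members were 4735, 3786, 5855, 2759, 3162, 3903, 4546, 4261, 4900 and 3006 bp wide in order of position. Of the 10, 5 scored 3100 and the others scored 1519.55, 1956.51, 1953.97, 2753.81 and 645.25. The 13 narrower peaks were 697 to 2402 bp wide and scored 105.91 to 3100. Gaps between neighbouring H3K4me3 peaks ran from 36 to 11424 bp, and 12 of the 22 gaps were under 1 kb. The members with the most H3K4me3 around them in the whole set, 23 other peaks within 50 kb each, were the ones from 3603232 to 3606393, from 3606563 to 3610465 and from 3616639 to 3621184, all in this group.

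H3K27me3 bordered the chromosome 27 group on both sides and was not found inside it. On the side of lower coordinates the first H3K27me3 peak began 1.73 kb from the group and was 802 bp wide with a score of 94.36. It was the edge of a dense block: 11 H3K27me3 peaks lay within 50 kb on that side, covering 33.2 kb, the widest of 14757 bp, with scores up to 3100. On the other side 1 H3K27me3 peak of 1216 bp lay within 50 kb, 3.99 kb from the last member, with a score of 83.40. No other stretch between H3K27me3 peaks held more than 4 broad peaks; this one, of 102.8 kb, held 10.

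The group of 4 lay on chromosome 1 from 47926539 to 48011971 (85.4 kb). Its members were 2883, 4441, 3601 and 3858 bp wide and scored 1677.81, 2560.96, 307.34 and 3100, among 18 H3K4me3 peaks in all. No H3K27me3 peak lay within 150 kb of its centre, and the members were 168.7 to 250.3 kb from the nearest one. The group of 3, on chromosome 28 from 3369024 to 3433597 (64.6 kb), held the widest broad peak of 10361 bp with members of 3659 and 2773 bp, and 5 H3K4me3 peaks in all. Its members were 39.5, 43.9 and 101.3 kb from the nearest H3K27me3 peak, against 1.73 kb for the closest member of the chromosome 27 group. Counted between consecutive members, 9 pairs lay within 5 kb of each other, 4 of them in the chromosome 27 group. Narrower H3K4me3 peaks were allowed to lie between the members of a pair. The closest outside that group were 395 bp apart on chromosome 14 (3267 and 3011 bp wide, from 3222650 to 3229322) and 676 bp apart at the chromosome 28 site.

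**Figure D5:**
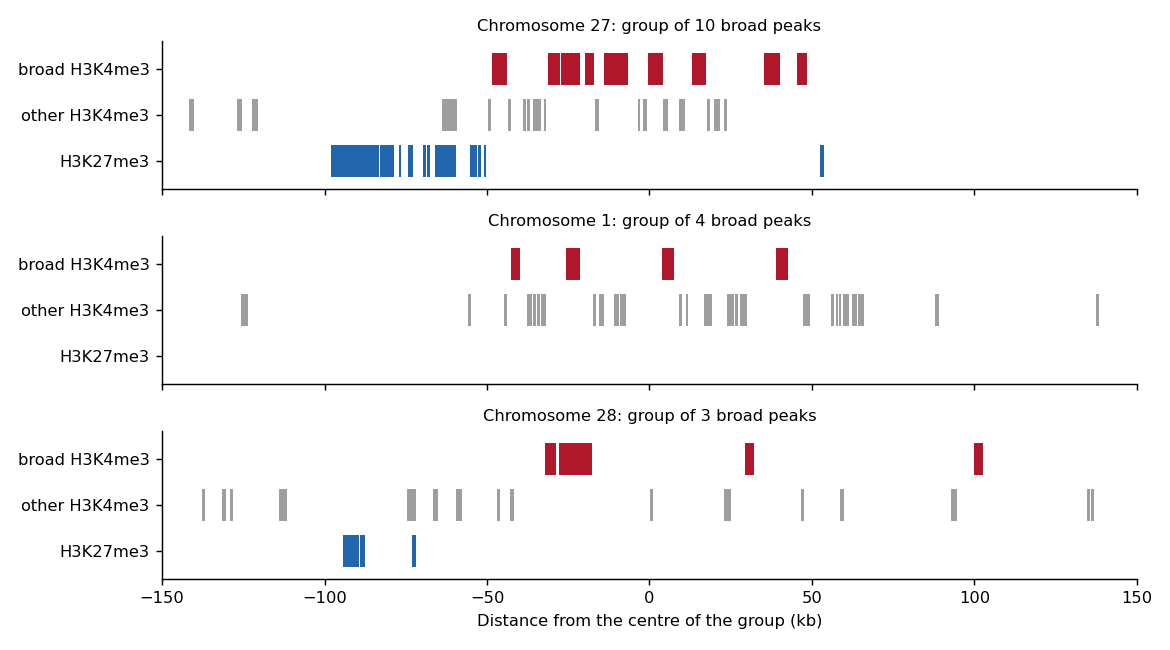
Peaks within 150 kb of the centre of each group of at least 3 broad peaks, with broad H3K4me3 peaks in red, all other H3K4me3 peaks in grey and H3K27me3 peaks in blue; the horizontal axis is the distance from the centre of the group (kb). The 10 broad peaks on chromosome 27 lie beside a block of H3K27me3, whereas no H3K27me3 is drawn around the 4 on chromosome 1.

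Without the chromosome 27 group, 417 broad peaks were left. Another broad peak then lay within 100 kb of 16.5% of them, against 15.9% of narrower peaks, compared with 18.5% of broad peaks and 16.0% of narrower peaks when the group was counted. Among broad peaks on microchromosomes the share was 23.7% without the group and 28.3% with it. For narrower peaks on microchromosomes it was 25.1% with the group counted (interval 23.6 to 26.7%) and was not recomputed without it. The broad share without the group lay inside this narrower interval. The sets are not alike and the broad share has no interval, so no order is read from them. The share of broad peaks with another H3K4me3 peak within 5 kb was 26.4% without the group and 27.6% with it. Their share on microchromosomes was 37.4% without the group and 38.9% with it.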

How the data were processed

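Per the labels' protocols, formaldehyde-fixed and sonicated chromatin from dissociated neural tubes was immunoprecipitated for each mark and sequenced. The track lines of the lists, per the file headers, name MACS in Galaxy as the peak caller. The submitters' processing notes name BWA, MACS2 and galGal4. Versions, parameters, filters and whether the Input was the control are not given in the sources used here. Each peak has a deposited score, which is the caller's value on an unnamed scale, so it was used within a list only. Reads were not used, and the depth of the libraries is unknown.

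From the peak starts and ends, widths, overlaps (at least 1 shared base), distances between edges, neighbours and counts by chromosome were computed in Python 3.11.15 with pandas 2.3.3 and scipy 1.17.1. Distances, overlaps and merging were tested on simulated data with known gaps. Shares carry 95% Wilson intervals and medians carry intervals from binomial ranks; both cover counting error only. With 1 library for each mark no test was made.

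The broad peaks and the lists were chosen with earlier results of these data known. Regions named are the 5 widest members, the 5 nearest to and the 5 farthest from H3K27me3, groups of at least 3 within 50 kb, and the 3 with the most H3K4me3 within 50 kb. Narrower peaks of at least 1500 bp, classes of width and score, low-scoring members and values without the chromosome 27 group were added after the data were seen. Genes and sequences are not given, because the table of genes available is of a different assembly and no genome was used here.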

Additional observations from a re-analysis of the deposited data

How the results depend on the processing

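No paired analysis was possible because each mark had 1 library. Of 46 recomputed values, 30 stayed within the interval of the value reported (for the number of members, within 1.5 times) and 16 did not. In 38 of 41 comparisons broad and narrower peaks kept their order; the exceptions were the share with H3K27me3 within 10 kb at a minimum width of 4000 bp (12.8% of broad and 10.3% of narrower peaks), above the median score (8.19% of broad and 7.95% of narrower peaks) and with overlapping peaks counted at distance 0 (33.4% of wide and 26.3% of narrower peaks). Counted in that way, the median distance to H3K27me3 was 57.8 kb for wide and 55.0 kb for narrower peaks. The comparisons with narrower peaks of at least 1500 bp and within classes of score are not among the 41. The share with another H3K4me3 peak within 5 kb turned its order in some of them. It was 27.6% of broad and 21.3% of narrower peaks of at least 1500 bp. At scores of 3100 or more it was 27.2% of broad and 23.3% of narrower peaks, and from 1000 up to 2000 38.3% and 34.7%. By construction, the number of members was 1762 at a minimum of 2000 bp, 78 at 4000 bp and 768 after merging H3K4me3 within 1 kb. The share with another H3K4me3 peak within 5 kb (27.6% of broad, 38.8% of narrower peaks) was 21.1% of broad and 42.4% of narrower peaks at 2000 bp, and 20.1% of broad and 34.3% of narrower peaks between midpoints. The gap was small in several other settings: 37.2% of broad and 38.3% of narrower peaks at 4000 bp, 14.8% of broad and 17.1% of narrower peaks after merging, 22.7% of broad and 25.3% of narrower peaks with neighbours of at least 1000 bp, and 27.5% of broad and 28.7% of narrower peaks above the median score. It stayed near the reported gap without the chromosome 27 group (26.4% of broad and 38.7% of narrower peaks). The same held when peaks with H3K27me3 within 1 kb were left out (26.9% of broad and 37.8% of narrower peaks). The median distance (19.0 kb for broad peaks) was 23.4 kb for broad and 17.8 kb for narrower peaks after merging, and 22.2 kb for broad and 16.6 kb for narrower peaks with such neighbours. With H3K27me3 peaks at or above their median score only, the sets also changed, to 472 broad and 9515 narrower peaks. Fewer H3K27me3 peaks lengthen the distances by construction. The median distance to H3K27me3 (105.8 kb) was then 165.1 kb for broad and 138.1 kb for narrower peaks. The share within 10 kb (8.90%) was 3.81% of broad and 6.44% of narrower peaks. Between midpoints that share was 6.32% of broad and 8.95% of narrower peaks. Without chromosomes 16, 25 and 27, which were picked for their high shares, 34.9% of broad and 31.2% of narrower peaks lay on microchromosomes. Neighbours of at least 1000 bp, overlapping peaks at distance 0 and the leaving out of chromosomes or of the chromosome 27 group were chosen after the data were seen. Depth limits what a place without a peak can show.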
